A study of Mus musculus with 6 samples.

Results

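The genes described here encode the proteins of the cytosolic ribosome. They were taken from the deposited table by symbol: every row whose symbol had the form Rpl or Rps followed by a number, with the usual suffix letters, and in addition Rplp0, Rplp1, Rplp2 and Rpsa. The rule found 88 of 25711 rows, of which 50 belong to the large subunit, 35 to the small subunit and 3 to the stalk of the large subunit. RNA was sequenced from cultured bone marrow-derived macrophages of wild-type mice, cells grown from marrow progenitors. The control group was sampled at 24 h (n = 3) and the other group after 24 h with 500 ng/ml CCL7 (n = 3), a chemokine that attracts monocytes. The series was made to study CCL7 in macrophage polarization and rheumatoid arthritis. The labels do not tell whether replicates are separate cultures or animals; a p-value here therefore speaks of the spread among these libraries alone, which could be technical.

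A ribosome joins a small subunit, which reads the mRNA, to a large subunit, which forms the peptide bond. Their proteins are made in near-equal amounts from unlinked genes, most of which have intact introns, a sharp start site in a run of pyrimidines and many processed pseudogenes elsewhere in the genome. Many ribosomal protein mRNAs begin with a 5′ terminal oligopyrimidine (TOP) tract, through which mTOR and the RNA-binding protein LARP1 set how much of the mRNA is translated and how stable it is, so mRNA level and protein output need not move together.

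GENCODE M21 lists 83 of the 88 genes as protein-coding and 5 as pseudogenes (Rpl32l, Rpl6l, Rps3a2, Rps3a3 and Rps4l). The genes lie on 19 chromosomes, with 14 of them on chromosome 7. Genes with a mean FPKM (fragments per kilobase of exon, scaled by the library's total count) of at least 1 over the 6 libraries were tested, which left 83 of the 88. Rpl24, Rpl36al, Rpl39l, Rpl3l and Rps10 fell below that level.

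Library totals ran from 34860523 to 51161400 counts. The summed level of 10 macrophage markers was 18080 to 18826 CPM (counts scaled to a common library size) in the controls and 34483 to 36221 CPM with CCL7. The marker sums of all lists were scaled by column totals alone, while the CPM of single genes carry a further scaling explained below. Markers of neutrophils, lymphocytes, dendritic cells, stromal cells, chondrocytes, erythroid cells and mast cells summed to at most 3.11 CPM per list in any library. The endothelial list summed to 22.1 to 26.6 CPM in the controls and 13.2 to 14.8 CPM with CCL7. The table holds no row at 0 in all libraries, for any gene. Of the listed markers it holds 5 of 7 for neutrophils, 4 of 7 for lymphocytes and 5 of 6 for stromal cells. It also holds 3 of 5 for chondrocytes, 3 of 6 for erythroid cells and 1 of 4 for mast cells, and the other lists in full. The part of the marker levels in the results was not tested.

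CCL7 replicate 2 stood apart from the other CCL7 libraries in the ribosomal protein genes. Across the 83 tested genes, the median deviation from the control mean was -0.32 on the log2 scale in CCL7 replicate 1, -0.05 in replicate 2 and -0.26 in replicate 3. The 3 control libraries lay at 0.02, -0.02 and -0.01. Replicate 2 was the highest CCL7 library at 75 of the 83 genes and replicate 1 was the lowest at 62. The median SD of these genes between replicates on log2 CPM was 0.04 in the controls and 0.15 with CCL7, while over all tested genes it was 0.06 and 0.10. Counts of calls for the family, its subunits and the related lists are given with and without replicate 2, and single genes without it where the call changed. The overlap counts, the sums with copies and the splits by promoter and size rest on all 6 libraries.

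**Figure D1:**
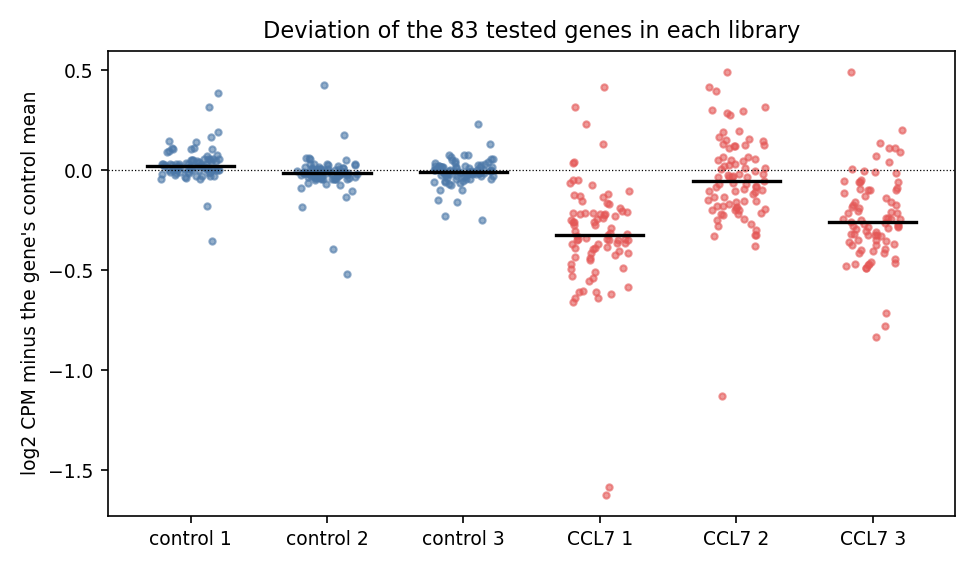
Difference of log2 CPM from the gene's own control mean (y axis, log2 units) for the 83 tested ribosomal protein genes, as points, in each of the 6 libraries (x axis). The black line is the median of the library: about 0 in the 3 controls, -0.32 and -0.26 in CCL7 replicates 1 and 3, and -0.05 in CCL7 replicate 2.

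Ribosomal protein genes took a smaller share of the RNA counts in macrophages given CCL7. Their summed counts were 3.13%, 3.07% and 3.06% of the library in the 3 controls. They were 2.13%, 2.53% and 2.20% of the library in CCL7 replicates 1 to 3. Every CCL7 library lay below every control, and the mean went from 3.08% ± 0.04 to 2.28% ± 0.21 (SD, n = 3 each), a ratio of 0.74. The same ratio was 0.74 for the large subunit, 0.74 for the small subunit and 0.76 for the stalk genes. Without CCL7 replicate 2, the mean share with CCL7 was lower by 0.92 percentage points in place of 0.80. A share of counts depends on all other genes: the 10 rows with the most counts, none of them a ribosomal protein gene, took 8.71% to 9.09% of the control libraries and 10.7% to 11.3% of the CCL7 libraries. In bulk samples, fewer cells with a transcript and less of it per cell cannot be told apart.

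**Figure D2:**
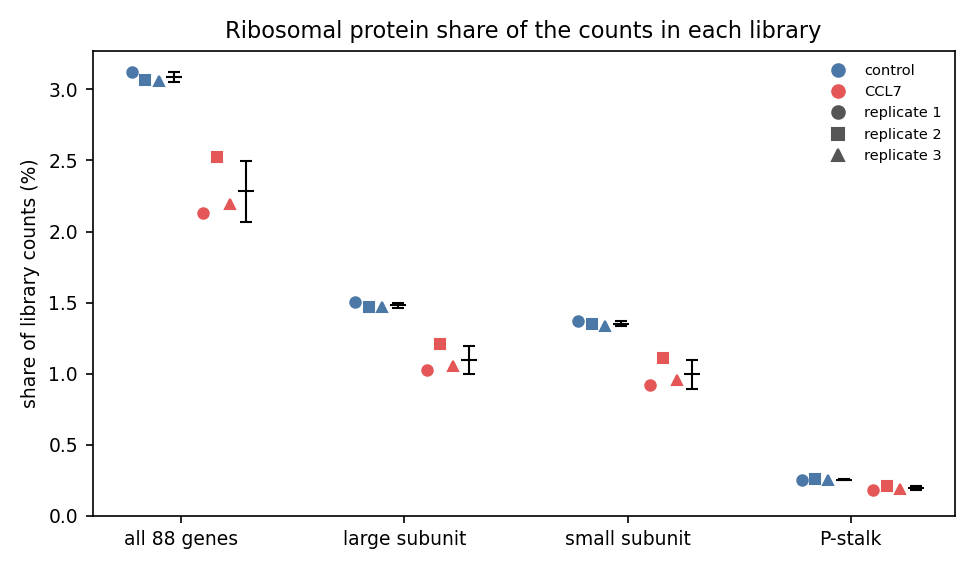
Share of each library's counts (y axis, percent) held by all 88 ribosomal protein genes and by the large subunit, small subunit and stalk genes (x axis). Each symbol is 1 library, blue for control and red for CCL7, and the black bar is the mean ± SD of 3. The 3 CCL7 libraries lie below the 3 controls in each set, with CCL7 replicate 2 (squares) nearest to them.

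With TMM scaling, which sets the libraries to a common level over most genes, 45 of the 83 tested genes were lower with CCL7 and 2 were higher, with 36 not passing edgeR's quasi-likelihood test at an adjusted p of 0.05. The background was 35.2% of all 11143 tested genes called lower and 33.9% called higher, beside 54.2% and 2.41% of the ribosomal protein genes. The differences were small. Among the 45 genes that fell, the change ran from -0.16 to -0.72 on the log2 scale, with a median fold of 0.815, and 81 of the 83 tested genes changed by less than 0.5 in either direction, as did 62.9% of all tested genes. The median log2 change was -0.19, beside -0.01 over all tested genes and 0.10 over 3074 other genes of like abundance. The genes were also closer to each other than genes in general, with an interquartile range of 0.211 against 0.711. In 42 of the 83 genes every CCL7 library was below every control, in 3 every CCL7 library was above, and 38 overlapped. Of all tested genes, 37.8% lay wholly below and 35.9% wholly above.

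How many genes passed depended on the scaling and on single libraries. With column totals in place of TMM, the median of all genes moved by -0.24, and 71 ribosomal protein genes were called lower and 0 higher, with a median of -0.43; of all tested genes 53.5% were then lower and 20.5% higher. A change of scaling moves the log2 change of every gene by nearly the same amount. The distance of the family's median from that of all genes, -0.18 under both scalings, is therefore no separate check. Without CCL7 replicate 2, 68 were lower and 2 higher (36.7% and 35.5% of all tested genes). The family's median was then -0.28, beside -0.01 over all tested genes. Leaving out CCL7 replicate 1 left 28 lower and 4 higher (32.9% and 32.8%), and leaving out control replicate 1 left 28 lower and 1 higher (32.5% and 31.3%). Of the 81 members tested under all 18 settings, the main test included, 26 were called lower in each, or 32.1%. This is close to the background, since 29.7% of the 11004 genes tested under all settings were called lower in each.

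Other tests and filters moved the counts as well. The DESeq2 Wald test called 41 lower and 4 higher (33.7% and 34.4% of all tested genes), and upper-quartile factors gave 57 and 0 (41.3% and 28.3%). With limma on the deposited FPKM, 72 were lower and 0 higher at a pseudocount of 1 (53.2% and 20.5%), and 69 and 0 at 0.1 (52.5% and 20.2%). Without the filter on low values, 40 of the 88 were lower and 8 higher (18.9% and 19.2%).

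**Figure D3:**
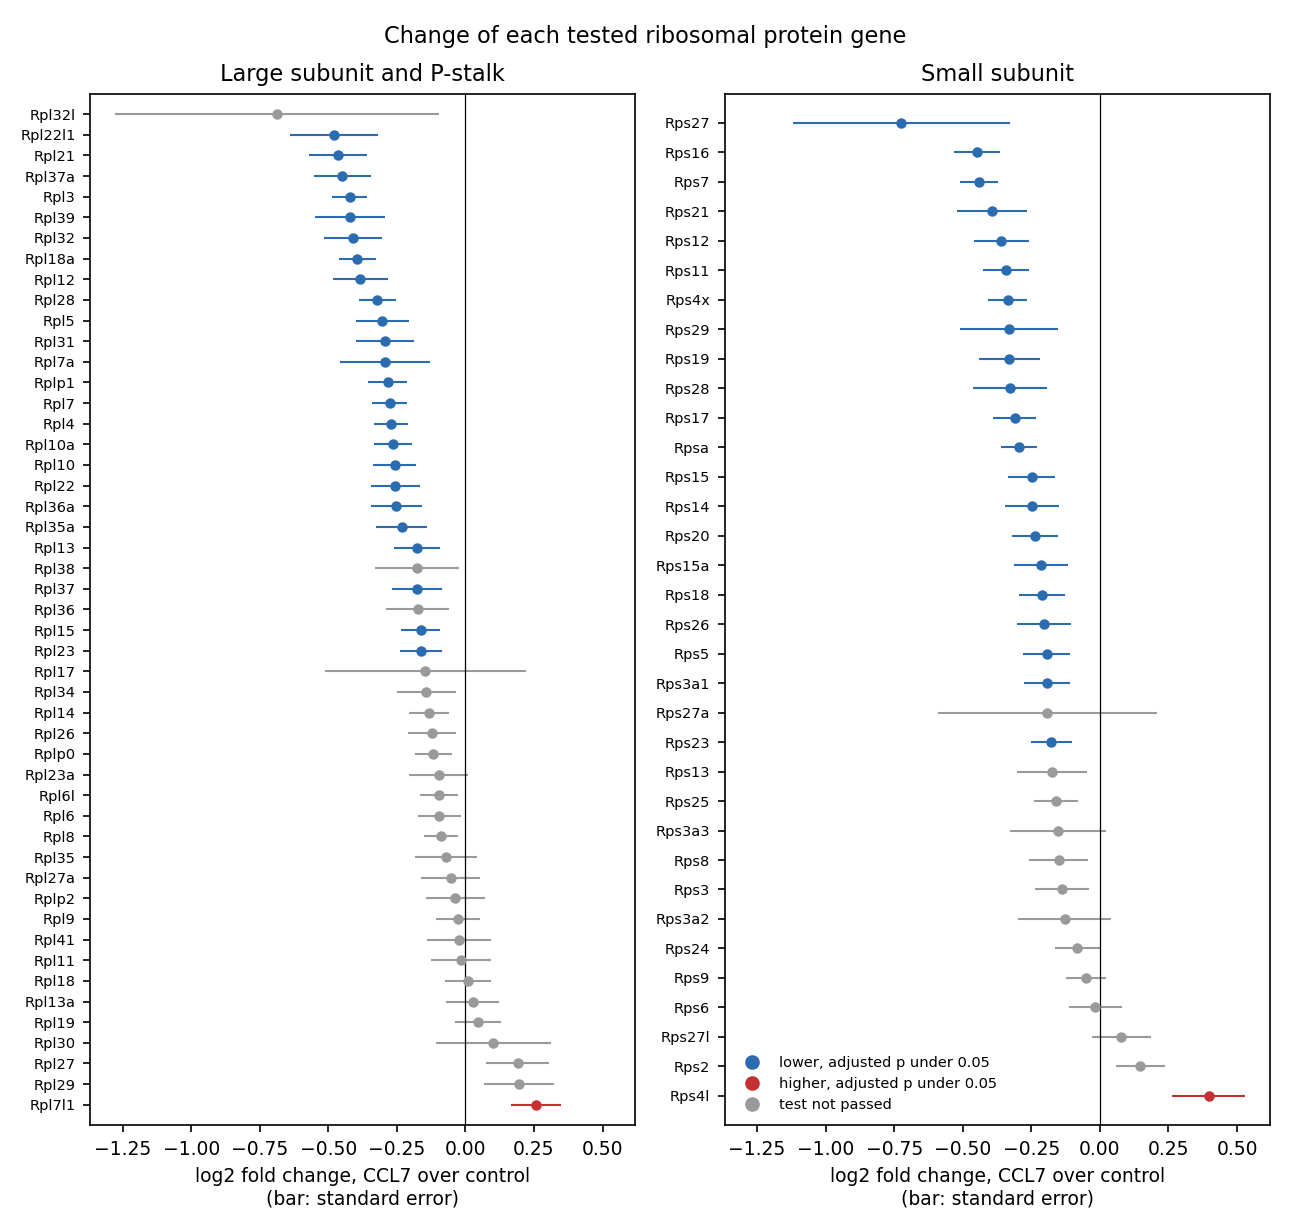
Log2 fold change of CCL7 over control (x axis) for the 83 tested genes (y axis), with large subunit and stalk genes on the left and small subunit genes on the right. Points are edgeR estimates and bars are standard errors from 3 libraries a group; blue genes were lower and red genes higher at an adjusted p under 0.05. Most points lie between 0 and -0.5, with Rpl7l1 and Rps4l in red to the right of 0.

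Of the small subunit genes, 21 of 34 tested were lower, 1 was higher and 12 did not pass, with a median log2 change of -0.21. Without CCL7 replicate 2, 29 were lower and 1 higher, with a median of -0.31, beside 36.7% and 35.5% of all tested genes. The lowest log2 change among the tested members was that of Rps27, a zinc-binding protein of the small subunit. Its level was 168, 162 and 139 CPM in the controls and 51.9, 119.5 and 113 CPM with CCL7. All CCL7 values lay below the controls, with replicate 1 at less than the others (log2 change -0.72 ± 0.40 SE, edgeR adjusted p = 0.0225). The call was lost with the DESeq2 Wald test (adjusted p = 0.0804), without control replicate 1 (edgeR adjusted p = 0.0709) and without control replicate 2 (edgeR adjusted p = 0.0593). Leaving out 1 library gave log2 changes from -0.94 to -0.42, the latter without CCL7 replicate 1, where Rpl22l1 was lower at -0.44. A gene similar in sequence, Rps27rt, is described further on; with such copies added the Rps27 change was -0.41, and Rpl22l1 was lower at -0.46.

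Rps16 and Rps7 changed almost alike. Rps16, whose product lies in the head of the subunit near the decoding site, had 354, 365 and 373 CPM in the controls and 238, 289 and 273 CPM with CCL7 (log2 change -0.45 ± 0.09, edgeR adjusted p = 0.000187). Rps7, whose product takes part in early processing of the small subunit rRNA, had 348, 326 and 329.9 CPM in the controls and 231, 268 and 242 CPM with CCL7 (-0.44 ± 0.07, edgeR adjusted p = 9.29e-05). In both genes the groups were apart, and the 3 controls lay close together.

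Rps4x, an X-linked gene of the small subunit body, and Rpsa, whose product is needed to mature the small subunit, are among the most abundant members. Rps4x had 862, 834 and 835 CPM in the controls and 637, 734 and 634 CPM with CCL7 (log2 change -0.34 ± 0.07, edgeR adjusted p = 0.000608). Rpsa had 900.4, 892 and 883 CPM against 678, 789 and 714 CPM (-0.30 ± 0.06, edgeR adjusted p = 0.00097). Both fell in all CCL7 libraries, least in replicate 2.

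Rps19, the gene most often mutated in Diamond-Blackfan anaemia, had 407, 394 and 417 CPM in the controls and 300.3, 373 and 295 CPM with CCL7 (log2 change -0.33 ± 0.11, edgeR adjusted p = 0.00481). The CCL7 libraries were all below the controls, replicate 2 by little. Rps3a1, after Rplp1 and Rplp0 the highest member by FPKM, had 685, 659 and 679.5 CPM in the controls and 551, 659 and 560.4 CPM with CCL7 (-0.19 ± 0.08, edgeR adjusted p = 0.026). Here replicate 2 came within 1 CPM of the lowest control. The Rps3a1 call was lost in 5 of the 6 fits that left out 1 library (edgeR adjusted p from 0.0511 to 0.133) and held without CCL7 replicate 2, at -0.28.

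Other small subunit genes named for their roles did not pass. Rps25, needed for translation from some viral internal ribosome entry sites, had 351, 362 and 364 CPM in the controls and 308, 357 and 299 CPM with CCL7, so that replicate 2 overlapped the controls (log2 change -0.16 ± 0.08, edgeR adjusted p = 0.0542). Rps3, which lines the mRNA entry channel, had 711, 684 and 698 CPM against 577, 720.1 and 604 CPM (-0.14 ± 0.10, edgeR adjusted p = 0.124). Replicate 2 was the highest of all 6 libraries at Rps3. Rps6, the protein phosphorylated by S6 kinases below mTOR, had 509, 502 and 504 CPM in the controls and 487, 562 and 448 CPM with CCL7 (-0.02 ± 0.10, edgeR adjusted p = 0.854), with CCL7 values on both sides of the controls. Without replicate 2, all 3 passed, at log2 changes of -0.24, -0.24 and -0.11 for Rps25, Rps3 and Rps6.

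Rps27a, which is made as a fusion of ubiquitin with a small subunit protein, varied more between replicates than any tested member but the pseudogene Rpl32l. It had 249, 427 and 302 CPM in the controls and 291, 387 and 178 CPM with CCL7 (log2 change -0.19 ± 0.40, edgeR adjusted p = 0.523). Both groups spanned a wide range and overlapped. Without CCL7 replicate 2 it was called lower, at -0.47 (edgeR adjusted p = 0.0374). Its exons overlap those of the antisense gene Clhc1, and the strand setting of the counting is not given in the sources used here.

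Of the large subunit genes, 23 of 46 tested were lower, 1 was higher and 22 did not pass, with a median log2 change of -0.18. Without CCL7 replicate 2, 36 were lower and 1 higher, with a median of -0.24, beside 36.7% and 35.5% of all tested genes. Rpl3, which reaches into the peptidyl transferase centre, was among the clearest. It had 813, 845 and 842 CPM in the controls and 591, 676 and 599 CPM with CCL7 (-0.42 ± 0.06, edgeR adjusted p = 8.06e-05), with a wide gap between the groups. Rpl37a, a zinc-binding protein, had 337, 326 and 326 CPM against 214, 274 and 236 CPM (-0.45 ± 0.10, edgeR adjusted p = 0.000494). Rpl39, which lines the tunnel through which the new chain leaves, had 248, 219.9 and 223 CPM against 147, 194 and 175 CPM (-0.42 ± 0.13, edgeR adjusted p = 0.00207). Neither gene had a CCL7 library at the level of a control.

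Rpl5 and Rpl11 bind the 5S rRNA together and, when not in ribosomes, the p53 ligase MDM2. Rpl5 had 543, 557 and 513 CPM in the controls and 424, 489 and 395 CPM with CCL7 (log2 change -0.30 ± 0.10, edgeR adjusted p = 0.00431). Rpl11 had 343, 337 and 341 CPM against 306, 388 and 314 CPM (-0.02 ± 0.11, edgeR adjusted p = 0.857). All CCL7 libraries were below the controls at Rpl5, while at Rpl11 replicate 2 was the highest of the 6 and replicates 1 and 3 were below the controls. Without replicate 2, Rpl11 had a log2 change of -0.14 and passed the test.

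Rpl10, which is loaded last and lets the subunits join, had 946, 952 and 942 CPM in the controls and 754, 880.3 and 740.5 CPM with CCL7 (log2 change -0.26 ± 0.08, edgeR adjusted p = 0.00468), with no overlap. Rpl21 had 57.2, 49.5 and 56.3 CPM against 35.5, 43.3 and 39.2 CPM (-0.47 ± 0.11, edgeR adjusted p = 0.000507). Pseudogenes similar in sequence have rows of their own, and Rpl21 held 56.5% of the counts of this family in the controls and 49.3% with CCL7; summed over the family the log2 change was -0.26. Rpl38, which helps translate some Hox mRNAs in the mouse embryo, had 127, 112 and 102 CPM against 84.8, 103 and 114 CPM, so that the groups overlapped (-0.18 ± 0.15, edgeR adjusted p = 0.168).

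Rpl13a, known in human monocytes for leaving the ribosome to silence inflammatory mRNAs, had only 13.7, 12.1 and 11.6 CPM in the controls and 11.9, 13.8 and 12.3 CPM with CCL7 (log2 change 0.03 ± 0.10, edgeR adjusted p = 0.813). These are low values for the family, whose median was 165 FPKM in the controls, against 6.36 FPKM for Rpl13a. The sign of the Rpl13a change turned to -0.21 with column totals. In GENCODE M21 its exons overlap those of Gm45713 on the same strand.

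Per length, the highest levels were those of 2 stalk genes. Rplp1 stood at 1567 FPKM in the controls and 1092 with CCL7, Rplp0 at 851 and 666, and Rps3a1 at 746 and 553, and 60 members were above 100 FPKM in the controls. The authors' lengths equal the summed exon length over all transcripts, which lowers the FPKM of members with long rare exons, so the order of levels between genes is approximate. Rplp0 anchors Rplp1 and Rplp2, whose tails draw elongation factors to the ribosome.

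Of the 3 stalk genes, Rplp1 was called lower. It had 735, 715 and 723 CPM in the controls and 554, 652 and 579.8 CPM with CCL7 (log2 change -0.28 ± 0.07, edgeR adjusted p = 0.00184), with no overlap. Rplp0 had 1296, 1336 and 1292 CPM against 1145, 1315 and 1159 CPM (-0.12 ± 0.07, edgeR adjusted p = 0.0932), and Rplp2 had 319, 312 and 334 CPM against 276, 355 and 309 CPM (-0.04 ± 0.11, edgeR adjusted p = 0.707). Replicate 2 overlapped the controls at Rplp0 and was above them at Rplp2; without it both passed, at -0.18 and -0.14. Whether the 3 stalk genes differed from each other in their change was not tested.

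Both members that were called higher are relatives of a canonical gene. Rpl7l1, a paralog of Rpl7 whose product takes part in building the large subunit, had 113, 115 and 117 CPM in the controls and 135, 153 and 124 CPM with CCL7 (log2 change 0.26 ± 0.09, edgeR adjusted p = 0.00931). Rps4l, a row related to Rps4x that GENCODE M21 lists as a transcribed processed pseudogene, had 4.26, 4.66 and 5.66 CPM against 6.45, 5.94 and 6.78 CPM (0.40 ± 0.13, edgeR adjusted p = 0.0216). All CCL7 libraries were above the controls at both genes, but neither call held under all settings. With column totals in place of TMM the changes of Rpl7l1 and Rps4l were 0.02 and 0.16, with upper-quartile factors 0.18 and 0.31, and with limma at a pseudocount of 1 they were 0.01 and 0.14, and neither gene passed in any of these or with limma at a pseudocount of 0.1. Rps4l also did not pass without control replicate 1, control replicate 2 or CCL7 replicate 3 (edgeR adjusted p = 0.0824, 0.0737 and 0.0604).

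A ratio of 2 genes within a library does not depend on scaling, so 7 paralogs were set against their parents. Rpl7l1 had 22.4%, 23.5% and 23.5% of the Rpl7 count in the controls and 33.5%, 34.4% and 32.4% with CCL7. The groups were far apart for their spread, with a log2 change of the ratio of 0.53 ± 0.03, and Rpl7 itself fell by 0.28 on the log2 scale. Rps4l had 0.577% ± 0.093 of the Rps4x count in the controls and 0.963% ± 0.137 with CCL7 (SD, n = 3 each), again without overlap. The exact 2-sided permutation p was 0.1 for each of these, the smallest that 3 libraries against 3 allow, and 0.117 after Benjamini-Hochberg adjustment over the 7 pairs.

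Rpl22l1, the paralog of Rpl22, was lower together with its parent. Its level was 32.8, 27.8 and 28.3 CPM in the controls and 20.5, 25.3 and 18.03 CPM with CCL7 (log2 change -0.48 ± 0.16, edgeR adjusted p = 0.00383), and Rpl22 also fell, from 158, 156 and 158 CPM to 124, 148 and 124 CPM (-0.26 ± 0.09, edgeR adjusted p = 0.00905). The Rpl22 call was lost without CCL7 replicate 1 (edgeR adjusted p = 0.0515). Rpl22 is dispensable for bulk translation in the mouse and is known to restrain Rpl22l1. The ratio of Rpl22l1 to Rpl22 was 20.8%, 17.8% and 17.9% in the controls and 16.6%, 17.04% and 14.6% with CCL7 (log2 change -0.23 ± 0.10, exact permutation p = 0.1). The groups did not overlap, but the gap between them was smaller than the spread among the controls.

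Rps27l, a p53-induced paralog of Rps27, had 67.7, 64.3 and 67.4 CPM in the controls and 64.3, 80.6 and 65.8 CPM with CCL7 (log2 change 0.08 ± 0.11, edgeR adjusted p = 0.412), with overlapping groups; the sign turned to -0.16 with column totals. Its ratio to Rps27 was 42.9% ± 4.8 in the controls and 83.2% ± 35.5 with CCL7, and 39.1% ± 2.8 and 54.8% ± 5.5 when the copies of Rps27 were added to the parent. The exact permutation p was 0.1 in both forms. Of the paralogs with low counts, Rpl36al had 0.471% of the Rpl36a count in the controls and 0.998% with CCL7, Rpl39l had 0.069% and 0.151% of Rpl39, and Rpl3l, known from heart and skeletal muscle, had 0.0146% and 0.0212% of Rpl3. These rest on few counts, and the exons of Rpl36al overlap those of Gm49383. In the fit without the filter Rpl36al passed at 0.88 ± 0.42 (edgeR adjusted p = 0.0126), with overlapping groups, but not with copies summed (0.64, edgeR adjusted p = 0.0538). P-values of the fit without the filter are not on the scale of the main fit. For Rps27 the edgeR adjusted p was 2.92e-25 without the filter and 0.0225 in the main fit, and for Rplp0 0.401 and 0.0932. Rpl36a itself had 137, 129 and 120.3 CPM against 99.6, 119.3 and 106 CPM (-0.25 ± 0.09, edgeR adjusted p = 0.012), and its call was lost without control replicate 1 or CCL7 replicate 1 (edgeR adjusted p = 0.0601 and 0.0608).

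Many members have copies similar in sequence elsewhere in the genome. Of the 88 genes, 65 have at least 1 other row in the table that shares 50% or more of its 50-letter words, 188 rows in all. How the authors' counting placed reads that match several rows is not given in the sources used here, and its part in the values was not tested. Rps27 itself had counts of 6447, 7776 and 5237 in the controls and 2437, 4792 and 4483 with CCL7. Its copy Rps27rt, which shares 91.1% of its words with Rps27, had 382, 582 and 748 counts in the controls and 2833, 703 and 913 with CCL7. The library with the fewest Rps27 counts, CCL7 replicate 1, held the most Rps27rt counts. Summed over Rps27 and its copies, the counts were 6831, 8360 and 5991 against 5277, 5501 and 5401, and the log2 change was -0.41 in place of -0.72 (edgeR adjusted p = 0.000907).

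Rpl17 and a pseudogene of it showed a like pattern. The parent had 7841, 5983 and 6484 counts in the controls and 8404, 7115 and 3796 with CCL7, while Rpl17-ps10 had 3212, 7155 and 3396 against 2200, 4817 and 5052. In each group, the library with the fewest Rpl17 counts held the most Rpl17-ps10 counts. The log2 change of Rpl17 was -0.15 ± 0.37 alone and -0.09 summed with its copies, and neither passed. Rps10, at 1.19, 1.24 and 1.25 CPM in the controls and 2.13, 1.85 and 1.70 CPM with CCL7, held only 1.29% of its family's counts in the controls, and most of the rest stood on Rps10-ps2 with 3339, 4076 and 3369 counts against 3925, 3974 and 3697. In the fit without the filter Rps10 was higher (log2 change 0.63 ± 0.10, edgeR adjusted p = 0.0202), a p-value not on the scale of the main fit. Summed with its copies, Rps10 had a log2 change of 0.08 (edgeR adjusted p = 0.286). Rpl24 held 11.9% of its family in the same way. Both rows also overlap a longer gene on the same strand in GENCODE M21, RPS10-NUDT3 and Gm28037.

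With all copies summed into their parents, 44 members were lower and 3 higher (35.6% and 34.4% of the genes then tested), with a median of -0.19. Across the 78 tested protein-coding members, the changes with and without copies had a Spearman's rho of 0.98, as a description over genes measured in the same libraries.

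**Figure D4:**
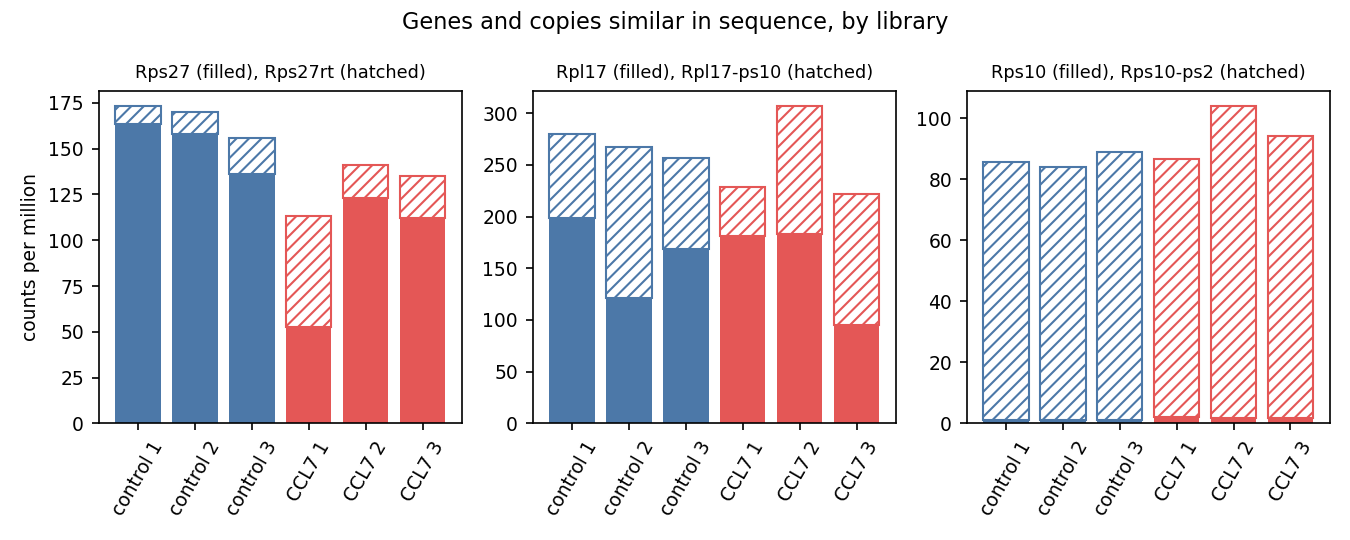
CPM (y axis, scaled over all rows) of 3 genes and their main copy in each library (x axis), as stacked bars: the filled part is the parent and the hatched part the copy, blue for control and red for CCL7. CCL7 replicate 1 has the shortest filled and the tallest hatched part in the Rps27 panel, control replicate 2 and CCL7 replicate 3 have the shortest filled part of their group in the Rpl17 panel and the tallest hatched one, and nearly all of the Rps10 bar is Rps10-ps2.

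The promoters of several members are shown because these genes are known for a start site inside a pyrimidine run. RefSeq promoter windows (build GRCm38.p6) were matched by symbol for 64 of the 88 members. Each line gives 40 bases before the start and 20 from the start on, 5′ to 3′ on the gene's strand, with the unbroken run of C and T that covers the start in capitals.
Rps27: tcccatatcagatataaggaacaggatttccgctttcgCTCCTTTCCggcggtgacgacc
Rps6: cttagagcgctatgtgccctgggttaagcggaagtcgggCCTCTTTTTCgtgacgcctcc
Rpl38: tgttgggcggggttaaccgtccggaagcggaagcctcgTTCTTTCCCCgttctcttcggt
Rpl28: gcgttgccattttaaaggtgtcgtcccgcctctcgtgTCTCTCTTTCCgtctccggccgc
Rplp2: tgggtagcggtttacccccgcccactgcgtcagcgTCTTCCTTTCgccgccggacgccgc
Rpl39: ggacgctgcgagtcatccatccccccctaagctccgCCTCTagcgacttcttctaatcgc
Rps7: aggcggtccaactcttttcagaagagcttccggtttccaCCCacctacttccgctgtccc
Rpl7l1: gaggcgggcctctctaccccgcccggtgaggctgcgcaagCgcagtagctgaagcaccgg
Rpl22l1: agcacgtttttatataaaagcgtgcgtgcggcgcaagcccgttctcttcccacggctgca
The windows lie at chr3:90213629-90213688 for Rps27, chr4:86857348-86857407 for Rps6, chr11:114668540-114668599 for Rpl38, chr7:4792925-4792984 for Rpl28, chr7:141447611-141447670 for Rplp2, chrX:37085203-37085262 for Rpl39, chr12:28635934-28635993 for Rps7, chr17:46782637-46782696 for Rpl7l1 and chr3:28805468-28805527 for Rpl22l1. Rps27, Rps6, Rps7, Rpl39 and Rpl7l1 are on the minus strand and the other 4 on the plus strand.

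The first 5 windows hold a run of at least 8 pyrimidines over the listed start, Rpl39 and Rps7 a shorter one, Rpl7l1 a single C and Rpl22l1 none. In the Rpl22l1 window, however, an unbroken run of C and T begins directly after the listed start. A run is counted here only where it covers that start, and whether listed starts are exact to the base was not checked. In the 300-base windows (250 before to 50 after the start, any listed start) such a run of at least 8 covered the start in 28.1% of the members and in 4.59% of all 27025 genes. The letters CCGGAA, the core of the GABP site, were found on either strand in 54.7% of the members and 16.7% of all genes, AAGATGG (YY1) in 15.6% and 7.28%, CTCGCGAGA in 10.9% and 0.762%, GGGCGG (Sp1) in 60.9% and 38.2%, CACGTG in 9.38% and 8.09% and TATAAA in 12.5% and 15.7%. The changes were split by these letters as a description, without a test. Of 17 tested members with the long run, 7 were lower, with a median log2 change of -0.16, and of 42 without it, 26 were lower, with a median of -0.20. With CCGGAA, 14 of 33 members were lower (median -0.14), and without it 19 of 26 (median -0.25). Of all tested genes, 35.2% were lower. The same split over all genes was not made. Of the 5 long runs shown, Rps27 and Rpl28 belong to genes that fell, and Rps6, Rpl38 and Rplp2 to genes that did not pass.

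Size of the protein was looked at in the same way. Members with the shortest coding sequences (138 to 366 bases, 20 genes) had a median log2 change of -0.24 with 13 lower, those with the longest (636 to 1257 bases, 20 genes) had -0.26 with 12 lower, and the 38 between had -0.18 with 20 lower. Over all tested genes, of any length, 35.2% were lower. Across the 78 members, Spearman's rho of the change was 0.02 with mean CPM and 0.06 with exon length.

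Genes around the ribosome were described by list. Fau and Rack1, ribosome components that the symbol rule leaves out, did not pass, at log2 changes of -0.14 and -0.10. Both passed without CCL7 replicate 2, at -0.25 and -0.14. Of 27 other transcripts listed by name for a TOP tract, 12 were lower (44.4%) and 3 higher (11.1%), with a median of -0.12, beside 35.2% and 33.9% of all tested genes. The tract itself was not looked for in their sequences. Without CCL7 replicate 2, 14 were lower (51.9%) and 3 higher (11.1%), beside 36.7% and 35.5% of all tested genes. With column totals 22 were lower (81.5%) and 1 higher (3.70%), beside 53.5% and 20.5%. The elongation factors Eef1a1 and Eef2 were among the lower ones (log2 change -0.17 ± 0.02 and -0.20 ± 0.01, edgeR adjusted p = 0.00206 and 0.00083). The largest fall was that of Nap1l1, a histone and ribosomal protein chaperone, from 311, 292 and 298 CPM to 147, 152 and 142 CPM (-1.03 ± 0.04, edgeR adjusted p = 2.24e-08), and the largest rise that of Eef1e1, a scaffold protein of the tRNA synthetase complex (1.24 ± 0.09, edgeR adjusted p = 3.36e-07).

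The mitochondrial ribosome has proteins of its own, encoded in the nucleus. Of its 77 protein genes, all tested, 47 were higher (61.0%) and 5 lower (6.49%), with a median log2 change of 0.22, beside 33.9% and 35.2% of all tested genes. With column totals 18 were higher (23.4%) and 21 lower (27.3%), with a median of -0.02, beside 20.5% and 53.5%. Without CCL7 replicate 2, 37 were higher (48.1%) and 8 lower (10.4%), with a median of 0.17, beside 35.5% and 36.7%. Mrpl52, of the large mitochondrial subunit, rose most, from 10.8, 11.2 and 9.65 CPM to 42.0, 54.0 and 39.8 CPM (2.10 ± 0.15, edgeR adjusted p = 8.35e-08), and Mrps6 fell most (-0.65 ± 0.08, edgeR adjusted p = 2.9e-05). The share of library counts in mitochondrial ribosomal protein genes was 0.202% ± 0.003 in the controls and 0.207% ± 0.013 with CCL7, while that of the cytosolic ones had a ratio of 0.74. The difference between these families was not tested.

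Among 21 tested chaperones and import factors for ribosomal proteins, 12 were higher (57.1%) and 2 lower (9.52%), with a median of 0.20. Among 11 quality control and rescue factors 6 were higher (54.5%) and the rest did not pass, with a median of 0.26. The background was 33.9% of all tested genes higher and 35.2% lower. With column totals 8 of the former were higher and 6 lower (38.1% and 28.6%), and 2 and 3 of the latter (18.2% and 27.3%). All tested genes then had 20.5% higher and 53.5% lower. Without CCL7 replicate 2 the counts were 12 and 2 of the former (57.1% and 9.52%) and 7 and 0 of the latter (63.6% and 0%). The background of that fit was 35.5% and 36.7%. Bysl, which matures the small subunit, rose most among the former, from 16.0, 16.2 and 17.1 CPM to 38.5, 39.4 and 37.0 CPM (1.22 ± 0.04, edgeR adjusted p = 2.56e-08), and Nufip1, a receptor for ribosomes in autophagy, among the latter (0.64 ± 0.10, edgeR adjusted p = 6.75e-05). Nap1l1, also on the chaperone list, fell most. With column totals each value was lower by about 0.24, and Bysl and Nufip1 still passed, at 0.98 and 0.40.

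Of 20 tested regulators of TOP mRNAs and mTOR signalling, 7 were higher (35.0%) and 5 lower (25%), with a median of 0.08, beside 33.9% and 35.2% of all tested genes, so the share called higher was near the background. With column totals 3 of the 20 were higher and 10 lower, beside 20.5% and 53.5% of all tested genes. The counts without CCL7 replicate 2 were 8 higher and 5 lower of the 20, beside 35.5% and 36.7%. Larp1, the TOP-binding repressor, had 127, 122 and 119.7 CPM in the controls and 284, 258 and 278 CPM with CCL7 (log2 change 1.15 ± 0.05, edgeR adjusted p = 1.75e-08). Sesn1, a leucine sensor that restrains mTOR complex 1, had 131, 139.7 and 142 CPM against 36.8, 35.4 and 38.3 CPM (-1.90 ± 0.05, edgeR adjusted p = 4.78e-10). Ddit4, another inhibitor of mTOR complex 1, rose most on the list by a small margin over Larp1 (1.16 ± 0.14, edgeR adjusted p = 4.99e-05), from 2.29, 2.87 and 2.98 CPM to 5.47, 6.66 and 6.05 CPM, and Eif4ebp2, a repressor of cap-dependent initiation, fell (-1.23 ± 0.08, edgeR adjusted p = 6.64e-08). In each of these genes the groups were far apart. Of 9 tested transcription factors known at ribosomal protein promoters, 3 were higher and 3 lower (33.3% each, near the background), with Myc at 1.39 ± 0.08 (edgeR adjusted p = 2.28e-06) and Gabpa, a subunit of GABP, at -0.64 ± 0.04 (edgeR adjusted p = 1.85e-06). For these factors 2 were higher and 3 lower without CCL7 replicate 2 (22.2% and 33.3%), and 1 and 6 with column totals (11.1% and 66.7%). All tested genes had 35.5% higher and 36.7% lower in the former fit, and 20.5% and 53.5% in the latter.

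**Figure D5:**
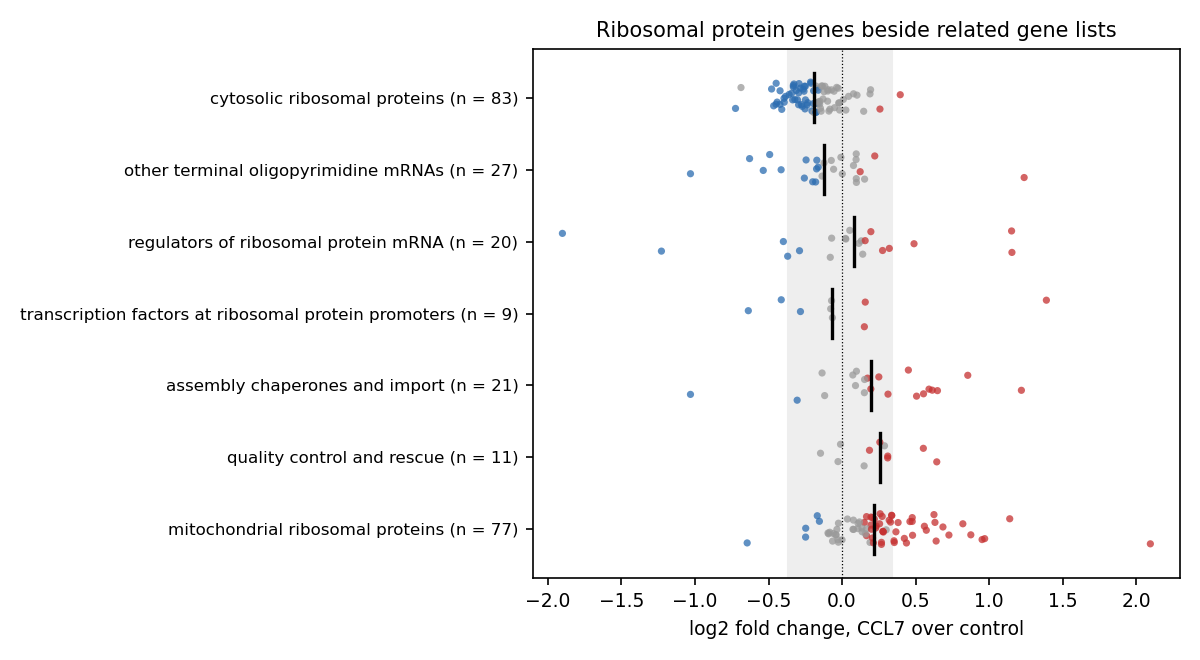
Log2 fold change of CCL7 over control (x axis) for tested genes of the ribosomal protein family and of 6 related lists (y axis), 1 point a gene, blue lower, red higher and grey not passing at an adjusted p of 0.05. Black lines are list medians and the grey band is the middle range of all tested genes; the cytosolic family is narrow around -0.19 and the mitochondrial one lies around 0.22.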

How the data were processed

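The deposited table holds, for each of the 6 libraries, a raw count per gene and an FPKM value, as the column names say. The counts were deposited by the authors without normalization. The FPKM values deposited by the authors are counts per kilobase of summed exon length, scaled by the library's total: the implied length equalled that of GENCODE M21 for 98.2% of the rows found there, within 0.5 bases. Per the submitters' processing notes, the tool named was Bowtie 0.12.2 and the builds were mm8 and mm9, with no role for each; counting program, strand setting and gene models were not given in the sources used here. Positions and overlaps come from GENCODE M21, matched by gene identifier.

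Counts were tested with edgeR 4.0.16 (R 4.3.3; glmQLFit and glmQLFTest, TMM, 2-sided, group as the only term) on 11143 genes (mean FPKM 1 or more over the 6 libraries), with Benjamini-Hochberg adjustment over all of them and a threshold of 0.05. For genes under that mean, values come from an unfiltered fit, whose adjusted p-values are not on the scale of the main fit. Log2 changes are edgeR's, CCL7 over control; their SE comes from the SDs of log2 CPM in the 3 libraries of each group. CPM are TMM-scaled. For paralog ratios, an exact permutation test, 2-sided, ran through the 20 ways of assigning the libraries. Copies were rows sharing at least 50% of their 50-letter words with a member in the GENCODE M21 transcripts. The edgeR steps were checked on simulated data. Alternatives used DESeq2 1.42.0, limma 3.58.1 on log2(FPKM + 1) and log2(FPKM + 0.1), other scalings, no filter, counts divided by 2, a replicate block and each library left out; summing copies was added after the data were seen.

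Members and lists were chosen with earlier results of these data known. Named were the 6 called members with the largest rise and the 6 with the largest fall, 18 members and 8 paralogs with their parents for their roles, the 3 with the highest mean FPKM, and the largest rise and fall of each list among called genes; only 2 members were called higher. Eef1a1, Eef2, Larp1, Eif4ebp2, Rpl17, Rps10, Rpl24 and Rpl28 were named outside this rule, after their values were seen. Rpl10l was not analysed here. A listed gene is not reported here.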

Additional observations from a re-analysis of the deposited data

How the results depend on the processing

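The median change of the tested members was below 0 under every alternative run, while the counts called moved more. The runs covered 83 members, but 88 without the filter (median -0.12) and 84 with copies summed (median -0.19). With column totals 0 were higher and 71 lower (median -0.43), with limma on log2(FPKM + 1) 0 and 72 (-0.43) and on log2(FPKM + 0.1) 0 and 69 (-0.44). Upper-quartile factors gave 0 higher and 57 lower, no filter 8 and 40, and the DESeq2 Wald test 4 and 41. Leaving out 1 library gave 1 to 4 higher, 28 to 68 lower and a median of -0.28 to -0.13. The share of counts then differed by -0.92 to -0.72 percentage points. Over all 6 libraries, the share of summed FPKM differed by -2.01 percentage points. Same-numbered control and CCL7 libraries did not deviate together (r from -0.08 to -0.02), so the numbers were not taken to pair the samples; with the replicate block 2 were higher and 44 lower (32.6% and 34.1% of all tested genes). Log2 ratios of paralog to parent ranged from 0.51 to 0.55 for Rpl7l1, -0.27 to -0.16 for Rpl22l1, 0.56 to 1.10 for Rps27l, 0.64 to 0.86 for Rps4l, 0.90 to 1.37 for Rpl36al, 0.72 to 1.94 for Rpl39l and 0.17 to 1.16 for Rpl3l when 1 library was left out.

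The sign turned for members near 0. With column totals, upper-quartile factors, limma with 1 and limma with 0.1, Rpl13a was at -0.21, -0.057, -0.18 and -0.21, and Rps27l at -0.16, -0.0041, -0.16 and -0.17. Without the filter, Rplp2 was at 0.016, Rps6 at 0.037 and Rpl11 at 0.035. Leaving out 1 library gave -0.47 to 0.068 for Rps27a, -0.039 to 0.10 for Rpl13a, -0.032 to 0.15 for Rps27l, -0.14 to 0.055 for Rplp2, -0.11 to 0.067 for Rps6 and -0.14 to 0.053 for Rpl11. The cause was not tested. The median SD of 0.15 between CCL7 libraries is close to the size of many of the changes.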
